A study of Mus musculus with 14 samples.

Results

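The genes described here encode 10 enzymes and essential subunits of DNA methylation and of Polycomb repressive complex 2: Dnmt1, Dnmt3a, Hells, Tet1, Tet2, Tet3, Ezh1, Ezh2, Eed and Suz12. They were chosen by gene symbol, 10 of 30503 genes in the count table, and all 10 were among the 17358 genes with enough reads to test. DNA methylation is copied onto new DNA strands during replication by DNMT1, with the chromatin remodeler HELLS (also called LSH) opening nucleosomal DNA. DNMT3A adds methyl groups to unmethylated sites, and TET enzymes oxidize methylcytosine toward its removal. Polycomb repressive complex 2 (PRC2) holds EED, SUZ12 and one of the methyltransferases EZH1 or EZH2, and methylates histone H3 at lysine 27 to keep developmental genes silent, a system studied in skeletal stem cells for its part in lineage choice.

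RNA was sequenced in bulk from 14 clones in culture, every one derived from 1 tdTomato+ colony of mouse femur bone marrow. All animals carried the tamoxifen-inducible Fgfr3-creER and the R26R(tdTomato/+) reporter and received tamoxifen at P21, so that the label and any deletion were limited to cells that expressed the Fgfr3-creER transgene at that time and to their progeny. The 5 Fgfr3-WT clones (Fgfr3-creER; R26R(tdTomato/+)) were isolated at P23 and used at passage 8. The p53 cKO clones carried in addition 2 floxed alleles of the tumor suppressor Trp53 (Fgfr3-creER; Trp53fl/fl; R26R(tdTomato/+)), with 5 clones isolated at P28 and used at passage 8, and 4 clones isolated at 4 months (P4M) and used at passage 6 to 8. Whether clones of a group came from separate animals is not in the labels, so p-values measure the spread between clones. Genotype went together with age at isolation and with a number in the sample titles (1303 for WT, 2963 for cKO), whose meaning is not stated there. Genotype, age and whatever that number stands for cannot be told apart.

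Libraries held 25688946 to 38958693 counted reads in WT, 37606033 to 48648618 in cKO P28 and 43757832 to 52857424 in cKO P4M clones. Trp53 reached 49.9 to 68.2 CPM (counts per 1e+06 reads, scaled with TMM factors) in the WT clones and 1.72 to 2.85 CPM in the 9 cKO clones, as the genotype labels give. Of 8 skeletal stromal markers, 6 were at 1 CPM or more in every clone, and the endothelial genes Pecam1, Cdh5 and Emcn and the haematopoietic genes Ptprc and Adgre1 stayed under 1 CPM in all clones. Of the same lists, the myeloid genes Lyz2 (12.7 to 90.6 CPM) and Cd68 (3.55 to 54.3 CPM) were detected in WT clones and were lower in the cKO clones by edgeR (1.34 to 19.5 CPM and 0.99 to 5.61 CPM), and the endothelial gene Kdr was higher, at 0.31 to 4.11 CPM in cKO P28 and 2.59 to 12.6 CPM in cKO P4M against at most 0.57 CPM in WT. Of the stromal markers, Col1a2 and Col3a1 were as low as 0.033 and 0.13 CPM in WT clones. The 8 stromal markers summed to 424 to 6489 CPM in WT clones. Their sum was 27306 to 45684 CPM in cKO P28 and 18005 to 84761 CPM in cKO P4M clones. The summed level of 4 chondrocyte markers ranged from 742 to 22885 CPM in WT, from 170 to 1324 CPM in cKO P28 and from 23.0 to 54.4 CPM in cKO P4M clones. The part of these markers in the results was not tested. WT replicate 1 stood apart from the other WT clones, with 5 Xist reads (0.163 CPM, against 229 to 1079 CPM) and a median log2 level of 322 X-linked genes, relative to the WT mean and to the autosomes, of -1.46, against 0.041 to 0.57. In the cKO clones Xist ranged from 78.5 to 893 CPM. The mean log2 CPM of 18 S phase genes, none of them a member of the 10, was 3.48 ± 0.47 (SD, n = 5) in WT, 5.17 ± 0.58 (n = 5) in cKO P28 and 5.17 ± 0.26 (n = 4) in cKO P4M clones, and 16 of the 18 genes were higher in the cKO clones. In bulk RNA a larger share of cells in S phase and more of these transcripts per cell cannot be told apart.

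Across the 10 genes, p53 cKO clones held more Hells, Dnmt1 and Suz12 and less Tet1, Ezh1 and Eed than WT clones, while Dnmt3a, Tet2, Tet3 and Ezh2 were not called when all 9 cKO clones were set against the 5 WT clones. With edgeR's quasi-likelihood test at a Benjamini-Hochberg false discovery rate of 0.05 over all genes tested, 6 of 10 members were called in all cKO against WT, where 48.8% of all tested genes were called. In each direction 3 members were called, beside 23.1% of tested genes higher and 25.7% lower. In cKO P28 against WT the count was 6 of 10 against a background of 38.9%, and in cKO P4M against WT it was 7 of 10 against 45.9%. An F test among the 3 groups called 6 of 10, against 50.6%. The share of members called lay somewhat above that of all tested genes, a difference that was not tested over so few genes. The median log2 fold change of the members in all cKO against WT was 0.033, beside -0.050 for all tested genes. Both cKO groups were compared with the same 5 WT clones, so their fold changes are given side by side and are not independent.

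**Figure D1:**
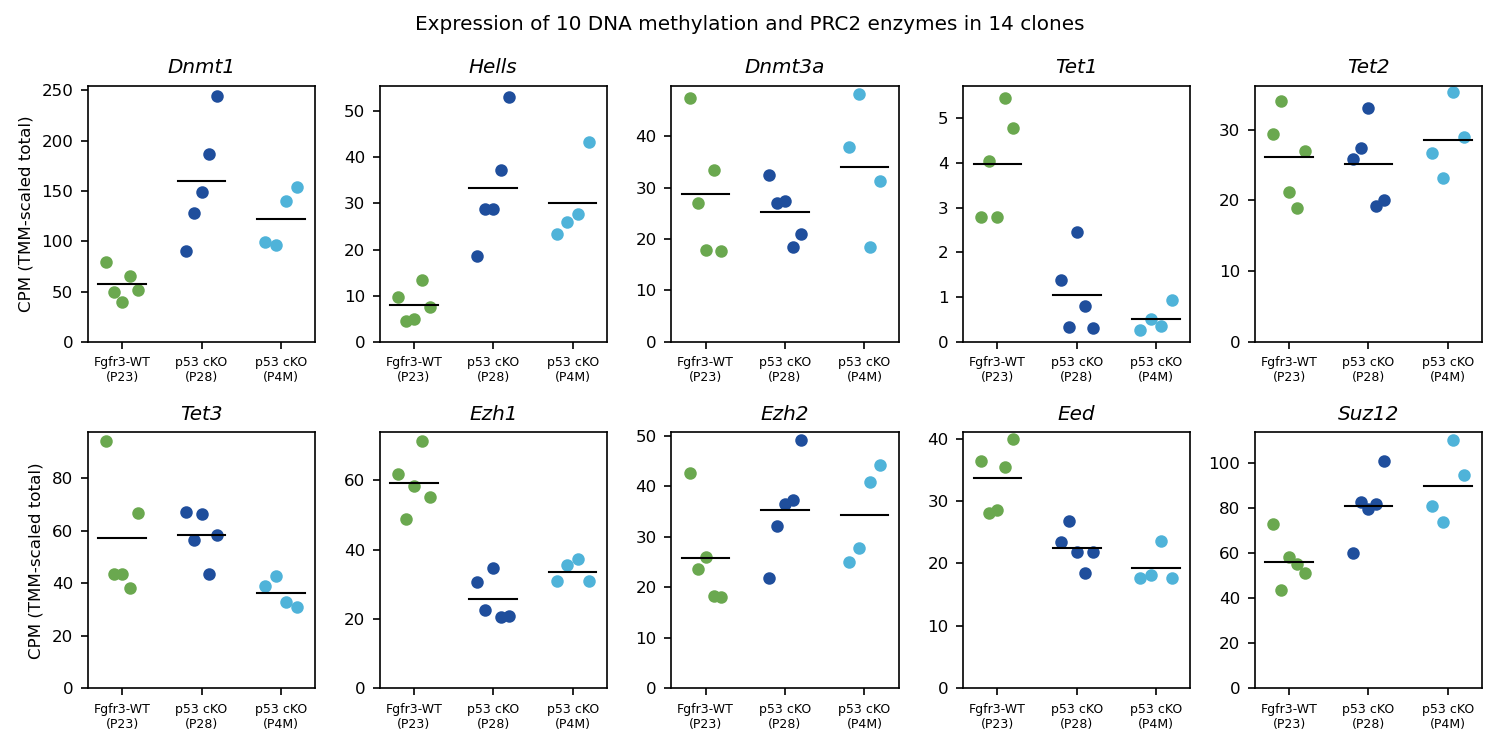
Each panel plots 1 gene, with CPM (TMM-scaled totals, linear axis from 0) against group. Each point is a clone (5 Fgfr3-WT P23, 5 p53 cKO P28, 4 p53 cKO P4M) and the line is the group mean. All 9 cKO points lie above all 5 WT points for Dnmt1 and Hells and below them for Ezh1, Eed and Tet1.

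Stretches near the transcript starts of Hells, Suz12, Ezh2 and Dnmt1 are shown first, because they hold 1 of 2 short runs of letters that were not found in the windows of the other members. The promoter windows were taken from RefSeq (GRCm38.p6, the build also called mm10), from 250 bases before to 50 bases after each annotated start, and all 10 members matched, with 14 windows in all. The letters searched on both strands were TTTCCCGC and TTTGGCGC, written for the E2F site of cell cycle genes, and they do not overlap each other. These and 2 further sets were chosen after the expression values had been seen. Capitals mark the match in each 30-base stretch, given on the gene's own strand from 5′ to 3′:
Hells: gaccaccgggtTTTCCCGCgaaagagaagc
Suz12: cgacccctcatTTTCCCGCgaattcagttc
Ezh2: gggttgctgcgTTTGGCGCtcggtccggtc
Dnmt1: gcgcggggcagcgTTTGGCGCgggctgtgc

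The Hells stretch lies at chr19:38930917-38930946 on the plus strand, with the letters at bases -62 to -55 from the start. In Suz12 (chr11:79992876-79992905, plus strand) they lie at -219 to -212. In Ezh2 (chr6:47595009-47595038, minus strand) they begin at base 4 and end at base 11 after the start, and in Dnmt1 (chr9:20952574-20952603, minus strand) they run from base 34 to base 41 of 1 of its 3 annotated starts. Hells and Suz12 hold TTTCCCGC, while Ezh2 and Dnmt1 hold TTTGGCGC. Either run occurred in 4 of the 10 members and in 1.80% of 27025 genes with a promoter window. The other letters searched were TTTGAA and TTCGAA, of the cell cycle homology region, found in 3 members (Eed, Suz12 and Dnmt1) and in 21.7% of genes, and CCAAT, found in 5 members (Ezh2, Eed, Suz12, Dnmt1 and Tet3) and in 41.1% of genes. Eed, which fell, and Tet3 thus held such letters as well. Such a match is a description of the sequence and says nothing of whether a factor binds there.

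Dnmt1 (ENSMUSG00000004099, mm10 chr9:20907209-20959888, minus strand), the maintenance methyltransferase, was measured at 79.7, 49.5, 39.5, 65.9 and 51.9 CPM in the WT clones. The cKO P28 clones held 90.5, 128, 149, 186 and 244 CPM, and the cKO P4M clones held 99.6, 96.4, 140 and 154 CPM. Every cKO clone lay above the highest WT clone. The Dnmt1 transcript rose 2.44-fold in all cKO against WT (log2 fold change 1.29 ± 0.24 SE, edgeR adjusted p = 0.000813), with log2 fold changes of 1.48 in cKO P28 and 1.10 in cKO P4M. Groups without overlap in the higher direction were seen for 2 members, Dnmt1 and Hells, where 9.73% of all tested genes showed the same.

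Hells (chr19), which DNMT1 and DNMT3 enzymes need to reach DNA packed in nucleosomes, had the largest rise of the 10. In the WT clones it stood at 9.68, 4.44, 4.89, 13.3 and 7.60 CPM. It reached 18.6, 28.7, 28.7, 37.3 and 53.03 CPM in cKO P28 clones and 23.3, 26.1, 27.7 and 43.4 CPM in cKO P4M clones. The lowest cKO clone thus exceeded the highest WT clone. Hells rose 3.96-fold in all cKO against WT (log2 fold change 1.98 ± 0.32 SE, edgeR adjusted p = 0.000283), by 2.06 on the log2 scale in cKO P28 and 1.91 in cKO P4M.

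Dnmt3a (chr12:3806007-3914443, plus strand), which methylates new sites, did not separate the groups. The WT clones held 47.5, 27.0, 17.9, 33.5 and 17.6 CPM, a spread that covered the cKO P28 clones (18.5 to 32.5 CPM) and all but 1 of the cKO P4M clones (18.4 to 48.3 CPM). The log2 fold change in all cKO against WT was 0.029 with a 95% interval of -0.55 to 0.61 (edgeR adjusted p = 0.939), so that a change of either sign within that interval was not excluded. Its exons share 133 bases with the antisense gene Dnmt3aos, and the cDNA kit did not mark strand.

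Within each clone the amount of Dnmt1 was also set against that of Dnmt3a, using TPM (transcripts scaled to a fixed total), which divide by transcript length. The TPM ratio of Dnmt1 to Dnmt3a was 2.66 to 4.77 in WT, 4.599 to 16.7 in cKO P28 and 3.21 to 12.2 in cKO P4M clones. On the log2 scale (pseudocount 0.1 TPM) it was 2.92 ± 0.86 (SD, n = 9) in cKO and 1.69 ± 0.34 (SD, n = 5) in WT, a 2.36-fold difference (exact two-sided permutation test, p = 0.0110, adjusted over 4 ratio tests 0.0240). The groups overlapped, with cKO P28 replicate 1 and cKO P4M replicates 1 and 2 inside the WT range. The 2 cKO groups differed by -0.70 on the log2 scale, P4M minus P28, which did not pass (exact permutation p = 0.254, adjusted 0.339, where the smallest p possible was 0.0159).

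Of the TET dioxygenases, Tet1 (chr10:62804570-62908996, minus strand) was scarce everywhere and lowest in the cKO clones. It was covered by 69 to 192 reads in WT, 12 to 124 reads in cKO P28 and 11 to 50 reads in cKO P4M clones. These gave 2.80, 4.06, 2.79, 5.46 and 4.79 CPM in WT, 1.38, 0.33, 2.46, 0.81 and 0.31 CPM in cKO P28, and 0.25, 0.50, 0.36 and 0.94 CPM in cKO P4M. All cKO clones lay below all WT clones in CPM, although cKO P28 replicate 3 came close to the lowest WT clone. Tet1 fell 5.37-fold in all cKO against WT (log2 fold change -2.43 ± 0.47 SE, edgeR adjusted p = 0.000946), by -1.91 in cKO P28 and -2.95 in cKO P4M on the log2 scale.

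The authors' TPM values for Tet1 separated the groups less well, at 0.33 to 0.50 in WT, 0.10 to 0.50 in cKO P28 and 0.03 to 0.41 in cKO P4M clones. In a limma fit on log2(TPM + 0.1), an alternative added after the data had been seen, the difference in all cKO against WT was -0.90 (adjusted p = 0.0495). That for cKO P28 alone was -0.59 and was not called (limma adjusted p = 0.258). The 0.1 TPM added before the log is of the size of the lower Tet1 values. In cKO P28 the call for Tet1 thus depended on the values and the test used. The limma fit on the authors' rlog values gave -0.86 in cKO P28, which was not called either.

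Tet2 (chr3) and Tet3 (chr6), the more abundant TET genes, were not called in all cKO against WT. Tet2 held 18.95 to 34.0 CPM in WT, 19.2 to 33.1 CPM in cKO P28 and 23.1 to 35.3 CPM in cKO P4M clones, with a log2 fold change of 0.037 (95% interval -0.34 to 0.41). For Tet3 the WT clones spanned 38.1 to 94.2 CPM, with replicate 1 highest, the cKO P28 clones 43.6 to 67.3 CPM and the cKO P4M clones 31.0 to 42.7 CPM. The P4M clones were the low group. Tet3 was called lower in cKO P4M against WT at a log2 fold change of -0.66 (edgeR adjusted p = 0.0449), a call that was lost in 10 of 14 fits that each left out 1 clone (adjusted p from 0.0217 to 0.117 over the 14). The call was also lost under DESeq2, with total counts only, without a filter, on rlog values and with only the clones compared. It was lost as well with the S phase score and in the fit on TPM (limma adjusted p = 0.174).

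**Figure D2:**
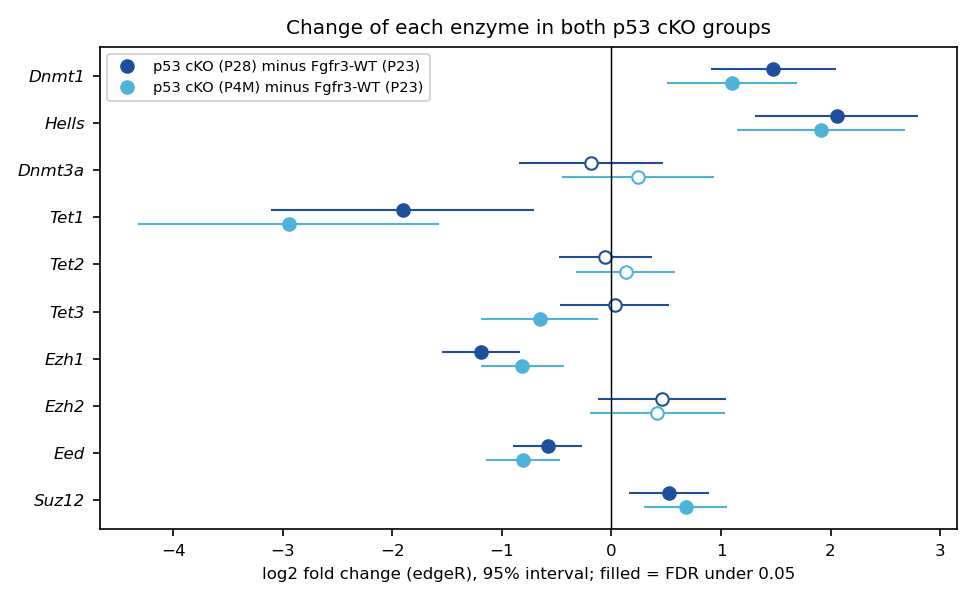
Log2 fold changes of the 10 genes (x axis, edgeR) in p53 cKO P28 (dark) and p53 cKO P4M (light) clones against the same 5 Fgfr3-WT clones, with bars for 95% intervals and filled points for a false discovery rate under 0.05. Hells and Dnmt1 lie farthest to the right (2.06 and 1.48 in P28), Tet1 farthest to the left (-2.95 in P4M), and Tet3 is filled in P4M only.

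Of the catalytic subunits of PRC2, Ezh1 was called lower in all cKO against WT and Ezh2 was not called. Ezh1 (ENSMUSG00000006920, mm10 chr11:101191115-101226463, minus strand), the methyltransferase typical of resting cells, was present at 61.8, 48.7, 58.4, 71.2 and 55.0 CPM in WT clones. It stood at 30.6, 22.6, 34.6, 20.6 and 20.8 CPM in cKO P28 and at 30.8, 35.4, 37.2 and 31.0 CPM in cKO P4M clones. No cKO clone reached the lowest WT clone. Ezh1 fell 2.004-fold in all cKO against WT (log2 fold change -1.003 ± 0.14 SE, edgeR adjusted p = 0.000112), with -1.19 in cKO P28 and -0.81 in cKO P4M. Among the members 3 fell with no overlap between cKO and WT, namely Ezh1, Eed and Tet1, where 8.38% of all tested genes did so.

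Ezh2 (chr6:47530139-47595341, minus strand), its counterpart in dividing cells, was measured at 42.6, 23.6, 25.9, 18.4 and 18.05 CPM in WT clones. The cKO P28 clones held 21.7, 32.1, 36.4, 37.4 and 49.1 CPM and the cKO P4M clones 24.9, 27.7, 40.8 and 44.1 CPM. WT replicate 1, the clone that stood apart in Xist and X-linked genes, lay within the upper part of the cKO values, and the groups overlapped. The log2 fold change in all cKO against WT was 0.44 with a 95% interval of -0.084 to 0.96 and did not pass (edgeR adjusted p = 0.152). Without WT replicate 1 it was 0.68 and passed (edgeR adjusted p = 0.0239), as did the comparisons of cKO P28 (0.69, edgeR adjusted p = 0.0393) and cKO P4M (0.67, edgeR adjusted p = 0.0471).

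Set against each other in the same clone, Ezh2 and Ezh1 gave a TPM ratio of 0.53 to 1.87 in WT, 1.14 to 3.58 in cKO P28 and 1.40 to 2.38 in cKO P4M clones. On the log2 scale the ratio was 0.96 ± 0.53 (SD, n = 9) in cKO and -0.11 ± 0.72 (SD, n = 5) in WT, a 2.10-fold difference (exact two-sided permutation test, p = 0.0120, adjusted over 4 ratio tests 0.0240, smallest possible 0.000999). WT replicate 1, at 1.87, was the only WT clone inside the cKO range. In raw reads, where transcript length is not divided out, the ratio was 0.258 to 0.689 in WT, 0.711 to 2.36 in cKO P28 and 0.781 to 1.42 in cKO P4M clones, and no cKO clone overlapped with WT. The 2 scales ordered clones differently. WT replicate 1 and cKO P28 replicate 1 had ratios of 1.87 and 1.14 in TPM and of 0.689 and 0.711 in reads. The reason for this difference was not tested. The 2 cKO groups differed by -0.32, P4M minus P28, on the log2 TPM scale (exact permutation p = 0.413).

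**Figure D3:**
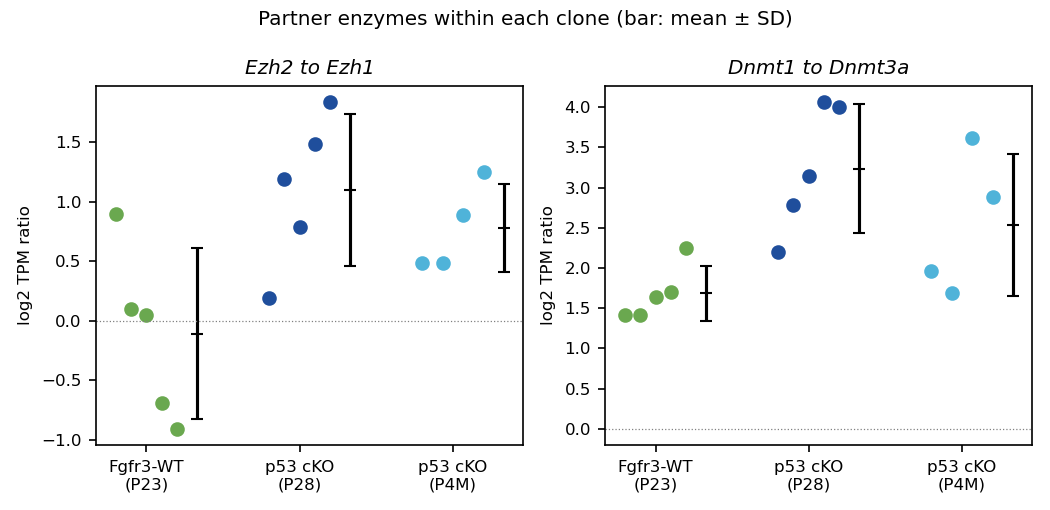
Log2 ratio of TPM values within each clone, for Ezh2 to Ezh1 (left) and Dnmt1 to Dnmt3a (right), by group. Points are clones, and the bar beside them shows the mean ± SD (n = 5, 5 and 4). The WT means are -0.11 and 1.69, and the means of all 9 cKO clones are 0.96 and 2.92.

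The structural subunits EED and SUZ12, both required for PRC2 activity, went in opposite directions. Eed (chr7:89954654-89980983, minus strand), which binds the trimethyl mark, was found at 36.4, 28.05, 28.5, 35.4 and 39.9 CPM in WT clones, at 23.4, 26.8, 21.9, 18.4 and 21.9 CPM in cKO P28 and at 17.6, 18.2, 23.6 and 17.6 CPM in cKO P4M clones. The groups touched most closely between WT replicate 2 and cKO P28 replicate 2 and did not overlap. Eed fell by 0.69 on the log2 scale in all cKO against WT (SE 0.13, edgeR adjusted p = 0.000652), 1.62-fold. In the fit on TPM the difference of Eed in cKO P28 was -0.28 and was not called (limma adjusted p = 0.175).

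Genes of chromosome 7, on which Eed lies, were lower as a whole in some of the same clones. Relative to the WT mean and to the median of all autosomal genes, the median log2 level of 644 chromosome 7 genes was between -0.69 and -0.64 in the 4 cKO P4M clones and -0.63 in cKO P28 replicates 4 and 5. It was -0.24, -0.10 and -0.21 in cKO P28 replicates 1 to 3 and between -0.12 and 0.20 in WT clones. The log2 fold change of Eed was -0.58 in cKO P28 and -0.80 in cKO P4M, and the part of the chromosome-wide level in it was not tested. For Ezh1 and Suz12 on chromosome 11 the corresponding median stayed between -0.062 and 0.10 in the cKO clones, while for Tet1 on chromosome 10 it was between -0.48 and -0.38, beside -0.39 to 0.33 in WT clones. For Ezh2 and Tet3 (chromosome 6) it was -0.28 to -0.21 in cKO and -0.25 to 0.17 in WT clones. For Tet2 (chromosome 3) it was 0.025 to 0.40 in cKO and -0.21 to 0.16 in WT clones. For Hells (chromosome 19) it was -0.64 to 0.14 in cKO and -0.24 to 0.30 in WT clones. For Dnmt1 (chromosome 9) and Dnmt3a (chromosome 12) the cKO clones spanned -0.097 to 0.10 and -0.37 to 0.0076. The part of these levels in the results was not tested.

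Suz12 (chr11:79993106-80034123, plus strand), the scaffold of the complex, was measured at 72.8, 43.8, 58.2, 55.2 and 51.3 CPM in WT clones. It stood at 60.1, 82.8, 79.6, 81.6 and 101 CPM in cKO P28 and at 81.0, 73.7, 110 and 94.6 CPM in cKO P4M clones. Only cKO P28 replicate 1 fell inside the WT range. Suz12 rose 1.52-fold in all cKO against WT (log2 fold change 0.60 ± 0.15 SE, edgeR adjusted p = 0.00529). The call in cKO P28 alone (0.53, edgeR adjusted p = 0.0243) was lost without WT replicate 2, cKO P28 replicate 4 or cKO P28 replicate 5, at an adjusted p of up to 0.0742.

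On the length-corrected scale the order of the genes differed between genotypes. In WT clones mean TPM was highest for Eed (36.0 ± 7.70, SD, n = 5), followed by Ezh2 (23.8 ± 14.8), Ezh1 (22.7 ± 2.64), Suz12 (18.5 ± 4.21) and Dnmt1 (15.4 ± 4.46). Tet3 (7.44), Tet2 (6.24), Dnmt3a (4.92), Hells (3.14) and Tet1 (0.416) followed. In the WT order only the steps from Dnmt1 to Tet3 and from Hells to Tet1 were larger than the SD of either neighbour, and all other neighbours lay within their spread. In cKO P28 clones Dnmt1 led (53.3 ± 20.6, n = 5), before Suz12 (32.4 ± 6.34), Eed (29.3 ± 3.20), Ezh2 (26.8 ± 7.35), Hells (13.5 ± 5.40) and Ezh1 (12.4 ± 3.26). In cKO P4M clones Dnmt1 (35.3 ± 8.82, n = 4) and Suz12 (31.2 ± 5.85) were again highest and within their spread of each other, with Ezh2 (22.9 ± 5.87) and Eed (22.0 ± 3.53) next. Tet1 was last in every group.

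No member was called between cKO P4M and cKO P28 by edgeR, where 7.22% of all tested genes were, and none by DESeq2, while 2 (Ezh1 and Tet3) had an unadjusted p under 0.05. Tet3 was 1.61-fold lower in P4M (log2 fold change -0.69, edgeR adjusted p = 0.104), with every P4M clone below every P28 clone, as for 9.96% of tested genes. It was called when only the clones of these 2 groups were fitted (edgeR adjusted p = 0.0181) and when WT replicate 1 was left out (edgeR adjusted p = 0.0351). The log2 difference of Ezh1 was 0.38, P4M minus P28 (95% interval 0.0077 to 0.75, edgeR adjusted p = 0.185). That of Tet1 was -1.04, with an interval of -2.32 to 0.24.

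The members differed in how they varied with the S phase score. Over the 14 clones, which fall into 3 groups and share their read scaling, Pearson's r of log2 CPM with the score was 0.96 for Hells, 0.91 for Dnmt1, 0.81 for Suz12, 0.54 for Ezh2, -0.75 for Eed, -0.76 for Tet1 and -0.81 for Ezh1. For Dnmt3a, Tet2 and Tet3 it was -0.10, -0.14 and -0.38. After subtracting group means, r was 0.79 for Hells, 0.72 for Dnmt1, 0.47 for Suz12 and 0.27 for Ezh2, but 0.006 for Eed, -0.095 for Tet1 and -0.18 for Ezh1. For Dnmt3a, Tet2 and Tet3 it was then -0.36, -0.44 and -0.52. With group means subtracted, Hells and Dnmt1 thus still rose with the score over the 14 clones pooled, while r was weaker than before for the 3 genes that fell. No r was computed for single groups. Among the WT clones, replicate 1 had the lowest score (3.10) but the highest Dnmt1 (79.7 CPM).

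When the score was added to the edgeR model as a covariate, no member was called in any comparison, beside 7.40% of all genes in all cKO against WT, and at an unadjusted level the 95% intervals of Ezh1, Eed and Tet1 still excluded 0. The log2 fold change of Hells in all cKO against WT went from 1.98 to 0.45 (95% interval -0.48 to 1.37), that of Dnmt1 from 1.29 to 0.12 (-0.78 to 1.03) and that of Suz12 from 0.60 to 0.16 (-0.54 to 0.86). In contrast, the values of Ezh1 (-0.87, interval -1.53 to -0.21), Eed (-0.70, interval -1.31 to -0.083) and Tet1 (-2.35, interval -4.55 to -0.14) stayed near those without the term. The score itself differed between the genotypes with no overlap, at 3.10 to 4.28 in WT and 4.36 to 5.91 in cKO clones, so that score and genotype are largely inseparable in this fit and its intervals are wide.

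**Figure D4:**
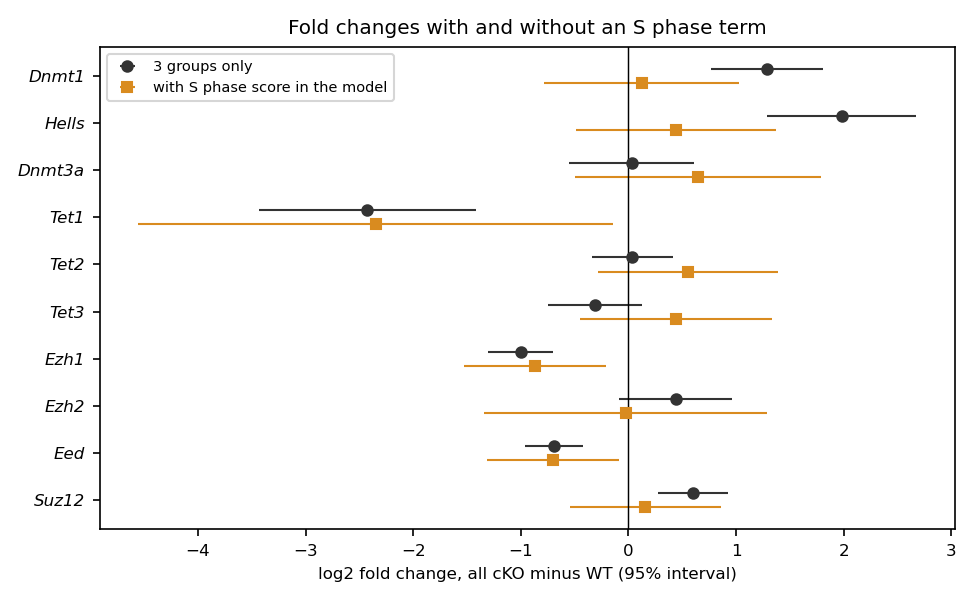
Log2 fold changes in 9 p53 cKO against 5 Fgfr3-WT clones (x axis, with 95% intervals) from the model with the 3 groups (circles) and from the model with the S phase score added (squares). The squares of Hells (0.45), Dnmt1 (0.12) and Suz12 (0.16) lie closer to 0 than their circles, whereas those of Ezh1 (-0.87), Eed (-0.70) and Tet1 (-2.35) lie near them.

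Among themselves, the members formed pairs that varied together inside groups. With group means subtracted, r over the 14 clones was 0.86 for Dnmt1 and Hells, 0.83 for Ezh2 and Suz12, 0.78 for Suz12 and Dnmt1, 0.75 for Ezh2 and Dnmt1 and 0.61 for Ezh1 and Tet1. For Ezh1 and Ezh2, r was -0.23. These are descriptions over clones that share libraries' scaling, with no test. Among 9659 other genes (mean log2 CPM 3 or higher), those most like each member over the 14 clones were Timeless (r = 0.986) and Chtf18 (0.983) for Hells, Topbp1 (0.974) and Atad5 (0.970) for Dnmt1, Rfc1 (0.908) and Rangap1 (0.890) for Ezh2, and Lin54 (0.955) and Mrps7 (0.955) for Suz12. For Ezh1 they were Stk25 (0.950) and Gm11518 (0.936), for Eed 1810037I17Rik (0.960) and Tmem19 (0.957), and for Tet1 Nicn1 (0.946) and Gng7 (0.926). Timeless and Chtf18 remained the nearest to Hells within groups (0.961 and 0.936), as did Topbp1 for Dnmt1 (0.954). The same held for Mrps7 (0.911) and Lin54 (0.909) with Suz12 and for 1810037I17Rik with Eed (0.904). For Tet1, Nicn1 (0.795) came after Pcbp4 (0.855) within groups. For Ezh2 the nearest within groups were Cntrob (0.937) and Mphosph9 (0.927). The likeness was weaker for Dnmt3a (Dclre1a, 0.865, and Itga10, 0.833) and Tet2 (Hps3, 0.811, and Zc3h13, 0.778), and Tet3 was nearest to Stxbp4 (0.921) and Wdr19 (0.907).

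The partners of DNA methylation were followed in a list of 15 genes, 14 of which could be tested. In all cKO against WT 5 were higher (Uhrf1, Cdca7, Tdg, Dmap1 and Uhrf2), 2 were lower, Mbd4 among them, and 7 were not called, with a median log2 fold change of 0.047. That is 7 of 14, near the 48.8% of all tested genes. Uhrf1, which brings DNMT1 to hemimethylated DNA, stood at 0.89 to 11.8 CPM in WT, 23.1 to 107 CPM in cKO P28 and 44.8 to 114 CPM in cKO P4M clones. Every cKO clone exceeded every WT clone in Uhrf1, which rose by 3.92 on the log2 scale (SE 0.66, edgeR adjusted p = 0.000383). Cdca7, the activator of HELLS, rose by 2.85 (edgeR adjusted p = 1.7e-05). WT reads were few for both, at 22 in the lowest WT clone for Uhrf1 and 30 to 64 for Cdca7. Dnmt3b, the other de novo methyltransferase, remained low, at 2.75 ± 0.45 CPM (SD, n = 5) in WT, 2.78 ± 0.27 (n = 5) in cKO P28 and 2.56 ± 0.46 (n = 4) in cKO P4M clones (log2 fold change -0.044, 95% interval -0.44 to 0.36).

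The accessory subunits of PRC2 and the demethylases of its mark made up a list of 12 genes, of which 3 were higher (Phf19, Epop and Rbbp4), 3 lower (Jarid2, Phf1 and Lcorl) and 6 not called in all cKO against WT, with a median of -0.14. These are 6 of 12, again near 48.8% of all tested genes. Phf19, a PRC2.1 subunit that binds CpG-rich DNA, was at 0.15 to 2.05 CPM in WT, 7.12 to 15.9 CPM in cKO P28 and 4.57 to 28.8 CPM in cKO P4M clones. It rose by 3.89 on the log2 scale (SE 0.74, edgeR adjusted p = 0.000858). Epop, which links PRC2 to elongin, rose by 3.34 (SE 0.51, edgeR adjusted p = 0.000188), from 0.13 to 0.77 CPM in WT to 2.05 to 9.11 CPM in cKO clones. Both were close to the detection limit in WT, with 4 reads in the lowest clone each.

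Jarid2, a PRC2.2 subunit that guides the complex to its targets, differed between the cKO groups. It was measured at 10.2 to 18.0 CPM in WT, 12.0 to 17.5 CPM in cKO P28 and 3.59 to 6.99 CPM in cKO P4M clones. Every P4M clone lay below every P28 clone, as for 9.96% of all tested genes. The 4 P4M clones lay below all WT clones as well, a pattern whose share over all tested genes is not given here. Jarid2 was lower in cKO P4M than in cKO P28 by -1.38 on the log2 scale (edgeR adjusted p = 0.00722). It was the only 1 of the 12 genes called in that comparison, where 7.22% of all tested genes were called. The H3K27 demethylases Kdm6a (log2 fold change -0.093, 95% interval -0.44 to 0.25) and Kdm6b (-0.18, interval -0.72 to 0.35) were not called in all cKO against WT.

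PRC1, the complex that ubiquitinates histone H2A and reads the PRC2 mark through its CBX subunits, was followed in 19 genes, of which 6 were higher and 6 lower in all cKO against WT, with a median of 0.0053. Of all tested genes 23.1% were higher and 25.7% lower. The higher genes were Cbx2 (1.49 on the log2 scale), Phc2 (1.45), Rybp (1.19), Pcgf5 (0.80), Pcgf3 (0.45) and Kdm2b (0.40). The CBX subunits changed in different directions, with Cbx2 higher and Cbx7 (-1.39) and Cbx8 (-0.52) lower on the log2 scale. Cbx7 fell from 23.0 to 62.6 CPM in WT to 12.0 to 36.7 CPM in cKO P28 and 9.48 to 20.3 CPM in cKO P4M clones (edgeR adjusted p = 0.00129). Pcgf6 (-0.93) and Pcgf1 (-0.90), which define variant PRC1 complexes, were also lower, and the core ubiquitin ligase Rnf2 was not called.

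**Figure D5:**
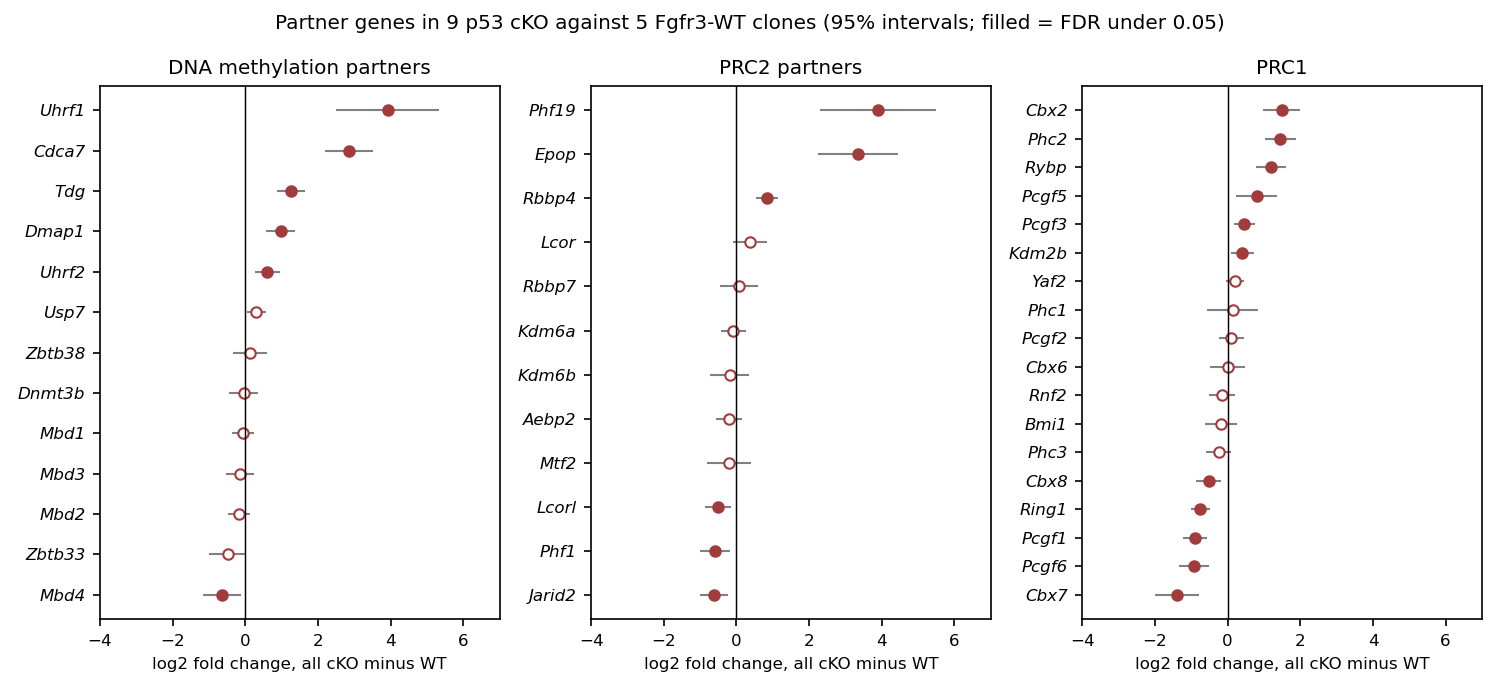
Log2 fold change in 9 p53 cKO against 5 Fgfr3-WT clones (x axis, edgeR) for partner genes of DNA methylation, of PRC2 and of PRC1, with 95% intervals and filled points for a false discovery rate under 0.05. Uhrf1 (3.92), Phf19 (3.89) and Epop (3.34) lie farthest to the right and Cbx7 (-1.39) farthest to the left.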

How the data were processed

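Total RNA of each clone was turned into cDNA with the SMART-Seq v4 kit, which does not mark strand. According to the study's methods, alignment of the single-end reads by the authors used TopHat with Bowtie2 and mm10, and reads that mapped to 1 gene were counted with HTSeq (versions not given in the sources used here). The deposited count table holds whole-number counts for 30503 genes, without normalization. The authors' rlog table holds log2 values made with DESeq2, and the deposited TPM table lists 55427 genes, with the program behind it not given in the sources used here. The deposited depth-normalized, FPKM and expected-count tables were not used.

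Counts were tested with edgeR 4.0.16 in R 4.3.3 (filterByExpr, TMM, robust quasi-likelihood fit of 3 groups and 14 clones), with Benjamini-Hochberg adjustment over 17358 genes. SE is the log2 fold change divided by the square root of F, and 95% intervals follow from it with the test's degrees of freedom. All cKO is the mean of both cKO groups. CPM are scaled by TMM, and log2 CPM have a prior count of 2. Ratios of TPM were compared by exact two-sided permutation of clones. Alternatives used DESeq2 1.42.0, limma 3.58.1, other scaling and filters, the S phase score as a covariate, and each clone left out. The test was checked on simulated data. No 2 clones of a group agreed within counting noise (lowest chi-square per degree of freedom 66.6). That says nothing of whether clones of a group were related. In cKO P28 the value was 66.6 to 134 among replicates 1 to 3 and 89.1 for replicates 4 and 5. Between these 2 sets it was 217 to 260. Counting error is small at these depths for most genes named. It is larger for Tet1 and for genes with few WT reads, such as Phf19, Epop, Uhrf1, Cdca7 and Cbx2. Replicate numbers run within groups and pair nothing.

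The 10 members, the gene lists and the S phase genes were chosen with earlier results of these data known. Named beside the members were the 3 highest and 3 lowest called genes of the partner lists, with Dnmt3b, Uhrf1, Jarid2, Kdm6a and Kdm6b in any case, and the 2 genes most correlated with each member. Other partner genes given with values (Cdca7, Cbx2, Cbx8, Phc2, Rybp, Pcgf5, Pcgf3, Kdm2b) were named after their values were seen. Some genes of these lists are counted but not reported here by name. Positions are from GENCODE M21 (mm10) and promoter sequences from RefSeq (GRCm38.p6). Exons of Ezh2, Eed, Suz12, Dnmt3a and Tet2 share 43 to 261 bases with genes on the other strand, whose reads cannot be told apart, and Dnmt3a has a processed pseudogene on chromosome 3.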

Additional observations from a re-analysis of the deposited data

Results flagged for a closer look

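Of 36 sets of clones examined for a value far from the rest, 1 stood out, and chance alone gives about 1 in 20. Among the 4 cKO P4M clones, Eed was 23.6 CPM in replicate 3 and 17.6 to 18.2 CPM in the others, and the gap took up 0.889 of the whole range. All 4 values stayed below the lowest WT clone (28.05 CPM).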

How the results depend on the processing

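With the S phase score in the model the number of members called was 0 in cKO P28, in cKO P4M and in all cKO against WT and among the 3 groups. With only the clones compared, 1 member (Tet3) was called between cKO P4M and cKO P28. With each clone left out in turn, 5 to 7 members were called in cKO P28 against WT, 6 to 7 in cKO P4M against WT, in all cKO against WT and among the 3 groups, and 0 to 1 between the cKO groups, where the call came without WT replicate 1. The log2 ratio differences spanned 0.87 to 1.32 (Ezh2 to Ezh1) and 1.10 to 1.39 (Dnmt1 to Dnmt3a) for all cKO against WT, and -0.55 to -0.14 and -1.06 to -0.42 for P4M against P28. Of 920 alternative values for single genes, 841 kept direction and call, 39 lost a call, 5 gained one and 35 changed sign, with Dnmt1 and Tet3 in P4M against WT (both with the S phase score) as the called values among them. Sign changes with the S phase score were those of Ezh2 (-0.014 in P28, -0.040 in P4M, -0.027 in all cKO), Dnmt1 in P4M (-0.043), Dnmt3a (0.43) and Tet2 (0.45) in P28, and Tet3 in P4M (0.096) and all cKO (0.44). Tet2 in P28 was 0.036 with total counts only, 0.031 on rlog and 0.31 on TPM, where Dnmt3a in P28 was 0.18 and P4M against P28 was -0.049 for Suz12 and -0.050 for Tet2. With 1 clone left out, values crossed 0 for Dnmt3a (-0.32 to 0.044), Tet2 (-0.20 to 0.056) and Tet3 (-0.089 to 0.26) in P28, for Ezh2 (-0.18 to 0.13) and Hells (-0.37 to 0.11) between the cKO groups, and for Dnmt3a (-0.11 to 0.27) and Tet2 (-0.061 to 0.15) in all cKO. The cause was not tested. No paired analysis was possible because replicate numbers are running numbers within groups and do not link clones. Other scalings moved the median of all genes by less than 0.1 on the log2 scale. Among the members, counting error matters most for Tet1, at 11 to 192 reads.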
